A study of Mus musculus with 6 samples.

Results

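Rab small GTPases are the subject here, followed in the fully-grown oocytes of wild-type and Marf1-mutant mice. A gene was a member if its current symbol was Rab followed by a number, with or without a letter, and if a probe set of the array named that gene alone. This gave 59 of the 19938 genes measured. Binding partners with Rab in their names, such as Rab11fip2, are not members. For 3 members with more than 1 probe set, Rab2a, Rab5b and Rab11b, the probe set with the highest mean over all arrays stood for the gene, and both are given below. So the probe sets of these 3 genes were chosen by their mean level over both genotypes, and no other measured value entered the choice.

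Both groups were oocytes of 23-day-old females on a shared C57BL/6J and C3HeB/FeJ background. The wild type carried intact Marf1, and the mutant, labelled Marf1 ENU/ENU, was homozygous for a Marf1 mutation made with the mutagen ENU. Females of either genotype had received 5 IU of equine chorionic gonadotropin, which drives follicle growth, at 21 days of age, 46 h before collection. The oocytes were at the germinal-vesicle stage, arrested in meiotic prophase, and cumulus cells had been stripped off by pipetting. There were 3 arrays per genotype, 1 sample each. The labels do not say that the samples came from separate animals or how many oocytes each held, so the p-values reflect how much these samples varied, which may be technical. MARF1 is an RNA-binding protein with a nuclease domain that oocytes need to resume meiosis.

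Rab proteins are membrane-bound switches that give each membrane compartment of the cell its identity. An exchange factor loads a Rab with GTP, the loaded Rab recruits effectors such as tethers, motors and lipid kinases, and a GTPase-activating protein ends the signal. In mouse oocytes, RAB11A marks the vesicles that organise the cytoplasmic actin network, and RAB27A takes part in carrying cortical granules to the cell surface.

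Levels are the deposited log2 expression values, so a difference of 1 is a 2-fold change. Levels of different genes come from different probes and are not compared. Marf1 itself read 9.21, 9.16 and 9.31 in the wild type and 5.98, 6.40 and 6.16 in the mutant, a difference of -3.05 (SE 0.15, adjusted p = 0.000100, limma). Mutant replicate 3 stood apart from the other arrays. Its correlation across probe sets was 0.970 to 0.973 with the other mutant arrays, against 0.984 to 0.985 among wild-type arrays and 0.985 between the other mutant arrays. For a description of a dim signal, 1190 olfactory and vomeronasal receptor genes were used, and the 95th percentile of their mean level, 4.51, is called the receptor-gene level.

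All 17 oocyte markers lay above that level in both genotypes, and their summed linear level was 21940 to 24592 in the wild type and 19078 to 23584 in the mutant. The test called 2 of the 17 (11.8%, beside 10.4% of all genes). These were Kit at -1.28 (adjusted p = 0.00419, limma) and Sohlh1 at 0.95 (adjusted p = 0.0109). Of 16 cumulus and granulosa markers, 3 passed the test, Kitl (1.94 higher), Nr5a2 (1.46 higher) and Ptgs2 (1.00 lower). The summed level of all 16 was 770 to 845 in the wild type and 1433 to 1780 in the mutant. Without Nr5a2 and Kitl it was 357 to 411 against 316 to 389. These are the 2 markers called higher, so leaving them out lowers the mutant sum by construction. In both genotypes 5 of the 16 (Amh, Amhr2, Fshr, Ptx3 and Tnfaip6) were below the receptor-gene level and 7 (Foxl2, Inhba, Inhbb, Nr5a2, Fst, Gja1 and Has2) were above it. The sums were 203 to 228 against 205 to 245 for 10 theca and stroma markers and 371 to 395 against 275 to 306 for 9 blood, immune and endothelial markers, with 1 gene past the test in each list (Pdgfra 0.67 higher, Pecam1 1.07 lower on the log2 scale). In bulk samples, fewer cells of a type and less RNA per cell cannot be told apart. Whether other cell types play a part in the Rab differences was not tested.

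In the mutant, 14 of the 59 Rab genes changed, 11 of them higher and 3 lower. A change means an adjusted p under 0.05 in limma, with the adjustment over every probe set of the array. The called share was 23.7% of the Rab genes, beside 10.4% of all genes. By direction, all genes were called higher in 6.4% and lower in 4.04% of cases. Of the rises, 3 were in Rabs of the Golgi and its supply from the endoplasmic reticulum, 3 in Rabs of the early endosome and 2 in Rabs of the late endosome or autophagosome. The falls were in 2 Rabs of secretion and 1 of lysosome-related organelles. Of the 11 rises, 10 were at least 2-fold, a size that 4.62% of all genes reached as a rise. None of the 3 falls reached 2-fold, as 1.11% of all genes did. At an unadjusted p under 0.05, 13 members were higher and 12 lower, beside 11% and 13.5% of all genes.

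The median difference over the 59 genes was -0.05, beside -0.04 over all genes. Differences were positive in 24 members and negative in 35, or 29 and 30 under cyclic loess normalization. All 3 mutant values lay above all 3 wild-type values in 13 members and below them in 14, and the groups overlapped in 32. Over all genes the groups did not overlap in 30.7%, with the mutant above in 12.9% and below in 17.7%. In both genotypes 13 members were below the receptor-gene level, and none of these was called. Among the 46 Rab genes with a mean above it, 30.4% were called, beside 16.2% of all genes above it, of which 9.94% were higher and 6.29% lower.

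**Figure D1:**
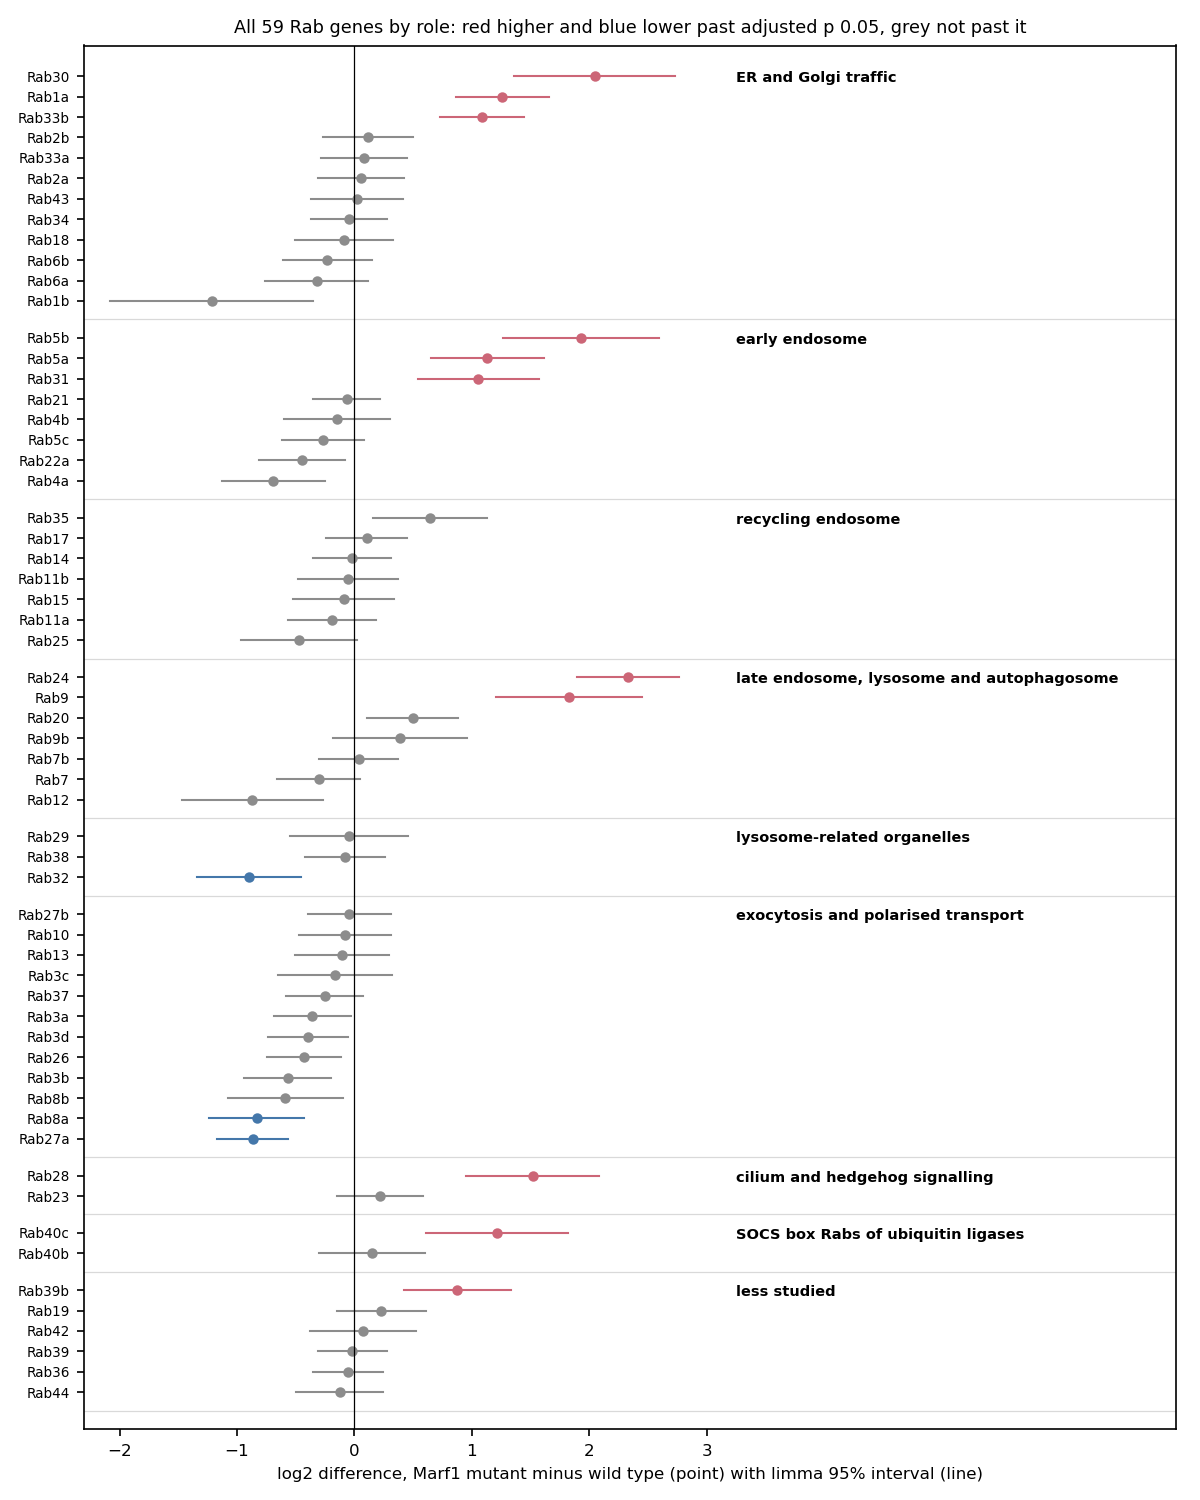
Difference in log2 expression, Marf1 mutant minus wild type, of all 59 Rab genes with 95% confidence intervals from limma as lines, arranged by role, in red for the 11 genes past the threshold and higher, blue for the 3 lower and grey for the rest. The 11 rises run from 0.88 to 2.33, the 3 falls lie between -0.90 and -0.83, and the median over all members is -0.05.

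The count was smaller with 1 array fewer. Leaving out any 1 wild-type array left 9 Rab genes called, 8 higher and 1 lower, while the share of all genes called dropped to 5.32%, 6.21% and 5.14% without replicates 1, 2 and 3. Without mutant replicate 1 there were 8 higher and 2 lower (6.23% of all genes), and without mutant replicate 2 there were 7 higher and 4 lower (6.34%). Without mutant replicate 3, the array that stood apart, 10 were higher and 3 lower (10.2%). All 6 of these fits called 8 of the 14 genes: Rab24, Rab30, Rab5b, Rab9, Rab28, Rab1a, Rab33b and Rab27a. When the fit kept brighter probe sets alone, or a single probe set for each gene, Rab12, Rab1b, Rab3b and Rab4a were called lower too. The share of all genes called lower was then 10.9% and 7.59%, against 4.04% in the main fit.

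The upstream sequence of 5 members is shown first, because 2 of the 3 Rab5 genes were called, Rab24 had the largest rise and Rab8a fell. Each is the 250 bases before the gene's start in the RefSeq annotation of GRCm38.p6, read 5′ to 3′ on the gene's strand. Capitals mark the letters GGGCGG (the GC box) or CCAAT (the CCAAT box) on either strand. Rab24 lies at chr13:55321981-55322230 on the minus strand, Rab5a at chr17:53478984-53479233 on the plus strand, Rab5b at chr10:128696269-128696518 on the minus strand, Rab5c at chr11:100738216-100738465 on the minus strand, and Rab8a at chr8:72160950-72161199 on the plus strand.
Rab24: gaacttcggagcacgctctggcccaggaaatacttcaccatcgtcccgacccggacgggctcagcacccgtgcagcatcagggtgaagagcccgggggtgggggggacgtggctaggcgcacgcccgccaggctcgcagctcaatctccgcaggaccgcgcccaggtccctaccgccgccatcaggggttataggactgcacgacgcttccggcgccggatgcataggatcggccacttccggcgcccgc
Rab5a: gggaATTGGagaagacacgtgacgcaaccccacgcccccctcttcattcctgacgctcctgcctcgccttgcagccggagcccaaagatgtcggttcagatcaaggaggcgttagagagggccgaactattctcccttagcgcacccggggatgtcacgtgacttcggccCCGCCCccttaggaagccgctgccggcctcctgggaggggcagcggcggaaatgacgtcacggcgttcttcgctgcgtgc
Rab5b: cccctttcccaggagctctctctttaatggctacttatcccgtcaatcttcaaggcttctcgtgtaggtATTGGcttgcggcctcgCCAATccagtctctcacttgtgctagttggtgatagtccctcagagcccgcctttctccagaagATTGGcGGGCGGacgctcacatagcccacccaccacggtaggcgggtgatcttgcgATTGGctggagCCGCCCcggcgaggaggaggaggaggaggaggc
Rab5c: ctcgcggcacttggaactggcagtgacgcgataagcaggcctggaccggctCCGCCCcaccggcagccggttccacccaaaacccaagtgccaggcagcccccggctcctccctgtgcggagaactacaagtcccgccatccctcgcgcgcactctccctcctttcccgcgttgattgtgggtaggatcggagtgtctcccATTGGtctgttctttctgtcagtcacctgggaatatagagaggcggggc
Rab8a: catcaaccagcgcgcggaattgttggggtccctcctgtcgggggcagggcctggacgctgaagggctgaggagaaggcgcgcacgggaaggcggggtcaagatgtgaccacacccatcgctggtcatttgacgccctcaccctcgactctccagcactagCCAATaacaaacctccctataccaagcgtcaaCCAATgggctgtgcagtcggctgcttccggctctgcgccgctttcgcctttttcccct
The window of Rab24 held no match to either motif. Rab5a and Rab5c, of which the first rose and the second did not pass the test, each held 1 GC box and 1 CCAAT box. Rab5b held 2 GC boxes and 4 CCAAT boxes, and Rab8a held 2 CCAAT boxes. All 5 windows were rich in G and C, from 59.2% in Rab5b to 68.8% in Rab24, and held 14 to 27 CpG pairs.

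Upstream windows were found for 48 of the 59 members, with 8 genes having several starts, which gave 60 windows. GGGCGG on either strand was in 66.7% of the Rab windows and in 32.7% of 32841 windows of all genes. CCAAT was in 40% and 33.9%. TATAAA was in 6.67% and 12.4%, and the E-box letters CANNTG, which read the same on both strands, were in 63.3% and 66.2%. TAATTG, letters bound by the oocyte factor NOBOX, were in 1.67% and 7.17%. By gene, the GC box was present for 7 of the 10 risers with a window, 1 of the 3 genes that fell and 28 of the 35 not called. A match is a description of letters only, and differences in these shares were not tested. The windows of all genes were not limited to genes measured here or above the receptor-gene level, so they are an unlike set.

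Among 12 Rabs of endoplasmic reticulum and Golgi traffic, 3 rose and none fell, with a median difference of 0.04. Rab30, which marks the Golgi, read 5.38, 5.55 and 4.60 in the wild type and 7.49, 7.41 and 6.77 in the mutant, here and below in the order of the replicate numbers. The lowest mutant array stood above the highest wild-type array. The mean went from 5.18 ± 0.51 to 7.22 ± 0.39 (SD, n = 3 each), a rise of 2.05 (SE 0.29) or 4.13-fold, with an adjusted p of 0.00588.

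Rab1a encodes a Rab that guides vesicles from the endoplasmic reticulum to the Golgi. It read 9.43, 9.32 and 9.29 in the wild type and 10.68, 10.84 and 10.30 in the mutant, with no overlap. The rise was 1.26 (SE 0.17), 2.39-fold, with an adjusted p of 0.00447. Its paralogue Rab1b read 7.01, 6.54 and 7.68 in the wild type and 6.56, 5.41 and 5.61 in the mutant. These groups overlapped, through the highest mutant and lowest wild-type arrays. The Rab1b difference of -1.22 had a 95% interval from -2.08 to -0.35 and missed the threshold (adjusted p = 0.104), though it was called without mutant replicate 1.

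Rab33b is a Golgi Rab that also binds the autophagy protein ATG16L1. It read 5.13, 5.27 and 5.31 in the wild type and 6.24, 6.18 and 6.55 in the mutant. The groups did not overlap, and mutant replicate 3 was here the highest array. The rise of 1.09 (SE 0.15) was 2.12-fold, with an adjusted p of 0.00527. Rab33a was below the receptor-gene level in both genotypes and differed by 0.08. The other members of this role did not pass, among them Rab6a of Golgi traffic at -0.32, Rab18 of lipid droplets at -0.09, and Rab2a at 0.06 in the probe set used and 0.27 in the other. Rab6b (-0.23) and Rab43 (0.02) overlapped between genotypes, and Rab2b (0.11) and Rab34 (-0.05) were below the receptor-gene level in both.

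Of 8 early-endosome Rabs, 3 rose and none fell, while the median difference was -0.11. Rab5 proteins drive the fusion of early endosomes. Rab5b read 5.90, 7.10 and 6.60 in the wild type and 8.39, 8.63 and 8.37 in the mutant. The wild-type arrays spread widely and the mutant arrays closely, with a gap of 1.27 between the groups. The mean went from 6.53 ± 0.60 to 8.46 ± 0.14, a rise of 1.93 (SE 0.29) or 3.81-fold, adjusted p = 0.00678. Its other probe set read 5.72, 6.74 and 6.22 against 7.97, 8.24 and 7.72, a rise of 1.75 (SE 0.27).

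Rab5a read 5.91, 5.77 and 5.68 in the wild type and 7.19, 7.08 and 6.48 in the mutant. Every mutant array was above every wild-type array, with replicate 3 nearest to them. The rise was 1.13 (SE 0.21), 2.19-fold, adjusted p = 0.0169. It lost its call in 5 of the 6 fits without 1 array (adjusted p 0.0523 to 0.0740) and without mutant replicate 3 was 1.35 (adjusted p = 0.00281). Rab5c read 7.93, 7.62 and 7.82 in the wild type and 7.48, 7.42 and 7.67 in the mutant. These groups overlapped, and the difference was -0.27, with an interval from -0.61 to 0.08. Differences between the responses of paralogues were not tested.

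Rab31, a Rab of transport between the Golgi and endosomes, read 5.38, 4.86 and 4.82 in the wild type and 5.73, 6.33 and 6.17 in the mutant. The groups were separated by 0.35. The rise of 1.06 (SE 0.22) was 2.08-fold, adjusted p = 0.028. It lost its call without wild-type replicate 2 or 3 or mutant replicate 2 or 3, at rises of 0.93 to 1.01 and adjusted p of 0.0651 to 0.110. Rab4a, which returns cargo quickly to the surface, read 7.46, 7.42 and 7.14 in the wild type and 6.40, 6.98 and 6.57 in the mutant. Its groups did not overlap, but the difference of -0.69 missed the threshold (adjusted p = 0.0740). Rab22a (-0.45), Rab4b (-0.15) and Rab21 (-0.07) were not called either.

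Among 7 Rabs of the late endosome, lysosome and autophagosome, 2 rose and none fell. Rab24, an atypical Rab linked to autophagosome clearance, read 5.15, 5.25 and 5.76 in the wild type and 7.62, 7.78 and 7.76 in the mutant. The mutant arrays were within 0.16 of each other and 1.86 above the nearest wild-type array. The mean went from 5.39 ± 0.33 to 7.72 ± 0.09, a rise of 2.33 (SE 0.19, interval 1.90 to 2.77) or 5.04-fold. This was the largest difference among the Rab genes, with an adjusted p of 0.000429.

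Rab9 encodes the Rab that returns receptors from late endosomes to the Golgi. It read 6.90, 7.02 and 7.40 in the wild type and 9.12, 9.32 and 8.36 in the mutant. Mutant replicate 3 was the lowest of its group, still 0.96 above the highest wild-type array. The rise was 1.83 (SE 0.27), 3.55-fold, adjusted p = 0.00637. Rab9b differed by 0.39 with an interval from -0.18 to 0.96 and was not called.

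Rab7, the main Rab of late endosomes and lysosomes, read 9.0, 9.16 and 9.17 in the wild type and 8.96, 8.59 and 8.87 in the mutant. Although the groups did not overlap, the difference of -0.30 was not called (adjusted p = 0.334). Rab12, which directs a receptor to lysosomes, read 6.15, 5.48 and 5.86 in the wild type and 4.92, 4.55 and 5.41 in the mutant. Its difference of -0.87 missed the threshold (adjusted p = 0.0967) and passed without mutant replicate 3 (-1.10, adjusted p = 0.0384). Rab20 stood 0.50 higher without passing (adjusted p = 0.136), and Rab7b was below the receptor-gene level in both genotypes.

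**Figure D2:**
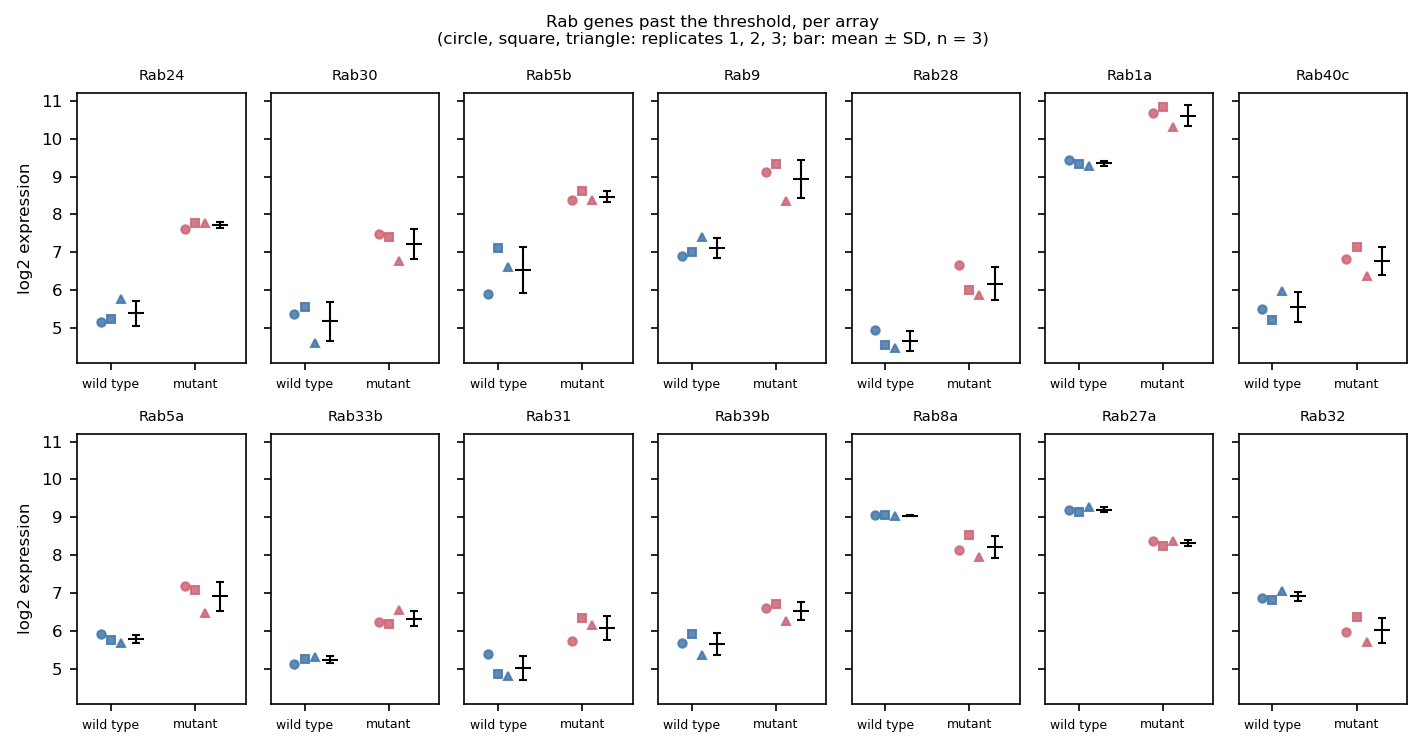
Log2 expression on each array of the 14 Rab genes past the threshold, wild type in blue and Marf1 mutant in red, with a circle, square and triangle for replicates 1, 2 and 3 and a bar for the mean ± SD (n = 3). In every panel the groups are apart, by 0.34 to 1.86 for the 11 rises and 0.44 to 0.76 for the 3 falls, and mutant replicate 3 is the lowest mutant array in 8 of the 11 rises.

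All 12 members of secretory and polarised transport had a negative difference, from -0.87 to -0.04, with a median of -0.38. So did all 3 of lysosome-related organelles, with Rab38 at -0.08 and Rab29 at -0.05. Only 2 of these 3 were negative under cyclic loess normalization and without wild-type replicate 3, mutant replicate 2 or mutant replicate 3. Negative differences made up 56.5% of all genes. Of the 12 secretory members, 2 fell past the threshold and none rose. Under cyclic loess normalization, with array weights and in 4 of the 6 fits without 1 array, 11 of the 12 were negative. The mutant arrays were all below the wild-type arrays in 8 members, beside 17.7% of all genes and 25.1% of genes above the receptor-gene level. Without mutant replicate 3 the median was still -0.38.

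Rab27a encodes the Rab that docks secretory granules. It read 9.20, 9.14 and 9.26 in the wild type and 8.38, 8.24 and 8.38 in the mutant. Both groups were tight and 0.76 apart. The mean went from 9.20 ± 0.06 to 8.33 ± 0.08, and Rab27a fell by 0.87 (SE 0.13, adjusted p = 0.0069), a 1.82-fold change. Rab27b was below the receptor-gene level in both genotypes and differed by -0.04.

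Rab8a, a Rab of transport to the surface and the cilium, read 9.05, 9.05 and 9.03 in the wild type and 8.14, 8.53 and 7.96 in the mutant. The wild-type arrays were within 0.02 of each other, and all mutant arrays were lower. Rab8a fell by 0.83 (SE 0.17, adjusted p = 0.0271), a 1.78-fold change, and lost its call without any 1 wild-type array or mutant replicate 1 (adjusted p 0.0872 to 0.0965). Its paralogue Rab8b read 9.66, 9.64 and 9.44 against 9.36, 9.03 and 8.58. The groups did not overlap either, and the difference of -0.59 was not called (adjusted p = 0.160).

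The Rab3 genes serve regulated secretion. Rab3b read 5.69, 5.30 and 5.71 in the wild type and 5.00, 5.08 and 4.92 in the mutant, a difference of -0.57 that missed the threshold (adjusted p = 0.0799). Rab3d (-0.40), Rab3a (-0.36) and Rab26 (-0.43) had separate groups without passing, with adjusted p of 0.116 to 0.204. Rab10 (-0.08) and Rab13 (-0.10) overlapped, and Rab3c and Rab37 were below the receptor-gene level in both genotypes.

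Rab32, which serves lysosome-related organelles such as melanosomes, read 6.88, 6.81 and 7.05 in the wild type and 5.96, 6.37 and 5.72 in the mutant. Its groups were 0.44 apart. Rab32 fell by 0.90 (SE 0.19, adjusted p = 0.0301), a 1.86-fold change. The call was lost without any 1 wild-type array, mutant replicate 1 or mutant replicate 3 (adjusted p 0.0511 to 0.119), where the difference without mutant replicate 3 was -0.75. Its close relative Rab38 differed by -0.08 and Rab29 by -0.05, neither past the threshold.

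No Rab of the recycling endosome was called among 7 (limma), with 1 higher and 0 lower at an unadjusted p under 0.05. Rab11a read 9.66, 9.58 and 9.47 in the wild type and 9.28, 9.64 and 9.22 in the mutant. The groups overlapped, and the difference was -0.19 with an interval from -0.56 to 0.18. Rab14 read 10.17, 10.21 and 10.01 against 9.99, 10.27 and 10.08, a difference of -0.02 with an interval from -0.35 to 0.32. Rab11b differed by -0.06 in the probe set used and -0.37 in the other. Rab25 (-0.47), Rab17 (0.10) and Rab15 (-0.09) were not called. Rab35, which acts in recycling and actin bundling, read 6.47, 6.09 and 6.75 against 7.28, 7.14 and 6.82. Its groups were apart by little, and the difference of 0.64 was not called (adjusted p = 0.125) except under cyclic loess normalization and with 1 probe set per gene in the fit.

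The remaining rises were in Rabs of other roles. Rab28, found at the cilium, read 4.95, 4.56 and 4.46 in the wild type and 6.66, 6.00 and 5.86 in the mutant. The groups were 0.91 apart, and the rise of 1.52 (SE 0.24) was 2.86-fold, adjusted p = 0.00927. Rab23, a brake on hedgehog signalling, differed by 0.22 and was not called.

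Rab40c carries a SOCS box and joins a cullin ubiquitin ligase. It read 5.49, 5.20 and 5.98 in the wild type and 6.81, 7.13 and 6.37 in the mutant. The groups were separated by 0.39, and the rise was 1.21 (SE 0.26), 2.32-fold, adjusted p = 0.0308. It was lost without wild-type replicate 1 or 2 or mutant replicate 1 or 2, at rises of 1.03 to 1.19 and adjusted p of 0.0887 to 0.108. Rab40b was below the receptor-gene level in both genotypes.

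Rab39b, best known from neurons and autophagy, read 5.68, 5.93 and 5.36 in the wild type and 6.61, 6.72 and 6.27 in the mutant. Its groups were 0.34 apart. The rise of 0.88 (SE 0.20) was 1.84-fold, adjusted p = 0.037, and was lost without wild-type replicate 1 or 3 or mutant replicate 1 or 2 (adjusted p 0.110 to 0.127). Rab39 was below the receptor-gene level in both genotypes and differed by -0.02. The other less studied members, Rab19 (0.23), Rab36 (-0.05), Rab42 (0.07) and Rab44 (-0.12), were not called.

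**Figure D3:**
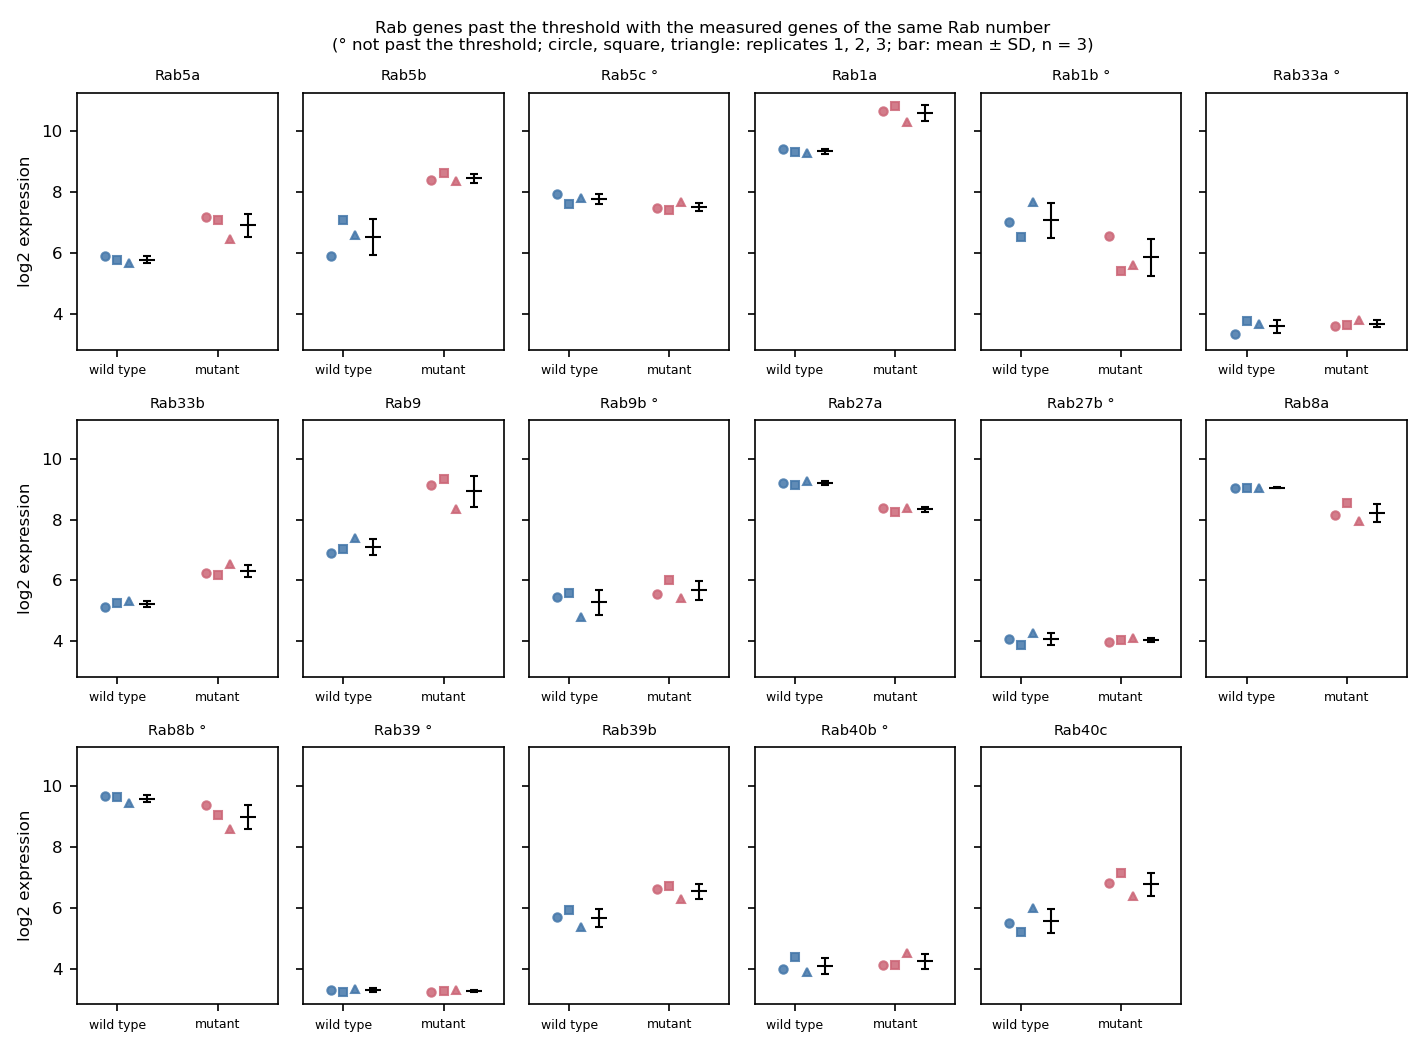
Log2 expression on each array of called Rab genes beside the measured Rab genes of the same number, wild type in blue and mutant in red, with symbols for the replicates, a bar for the mean ± SD (n = 3) and a degree sign on genes not past the threshold. Rab5a and Rab5b lie higher in the mutant while Rab5c overlaps, and Rab1a lies higher while Rab1b overlaps at a difference of -1.22.

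The genes around the Rab cycle were counted from lists of exchange factors, GTPase-activating proteins, effectors, delivery factors and Rab-like GTPases. Across all 158 measured genes of these lists, 29 changed (18.4%), 13 higher and 16 lower. Of the 137 with a mean above the receptor-gene level, 26 were called, beside 16.2% of all genes above it. By list, this was 11 of 44 exchange factors, 6 of 34 GTPase-activating proteins and 8 of 46 effectors. Of 51 exchange factors, 4 rose and 7 fell, 21.6% called in all beside 10.4% of all genes, with a median difference of 0.01. Rab3ip, an exchange factor for RAB8, read 6.61, 6.95 and 6.78 in the wild type and 8.64, 8.69 and 8.51 in the mutant. Its groups were far apart, and it rose by 1.83 (SE 0.15, adjusted p = 0.000425). Rabgef1, an exchange factor for RAB5, read 5.47, 5.75 and 5.16 against 7.13, 7.43 and 6.90, a rise of 1.69 (adjusted p = 0.00268).

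Dennd6a, an exchange factor for RAB14, fell by 1.20 (adjusted p = 0.0169) and lost its call without wild-type replicate 1 or 3 or mutant replicate 1. Dennd3, an exchange factor for RAB12, fell by 0.92 (adjusted p = 0.0145) and lost its call without wild-type replicate 2 or 3. Some further exchange factors of RAB5 and RAB8 are named here after their values were seen. For RAB5, Gapvd1 rose by 0.71 (adjusted p = 0.0312) and Rin3 fell by 0.74 (adjusted p = 0.0400), and each lost its call in 5 of 6 fits without 1 array. Rin1 (0.13), Rin2 (-0.18) and Rinl (0.05), and Rab3il1 for RAB8 (0.21), were not called. The RAB5 exchange factors named here had no common direction.

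Of 42 GTPase-activating proteins, 5 rose and 3 fell (19%), with a median difference of -0.10. Tbc1d20, which acts on RAB1, read 6.85, 6.95 and 6.99 in the wild type and 7.91, 7.95 and 8.03 in the mutant. The mutant arrays were all higher, and the rise was 1.03 (adjusted p = 0.00293). Tbc1d31, a protein of centriolar satellites, rose by 1.46 (adjusted p = 0.0026) and Rabgap1 by 1.45 (adjusted p = 0.00499). Tbck fell by 1.03 (adjusted p = 0.0307), a call lost without wild-type replicate 1 or 3 or mutant replicate 2 or 3.

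Of 52 effectors, 3 rose and 6 fell (17.3%), with a median of -0.16. Rab11fip2, which links RAB11 to myosin Vb, read 5.64, 5.92 and 6.19 in the wild type and 8.08, 8.07 and 7.74 in the mutant. Its groups did not overlap, and it rose by 2.05 (adjusted p = 0.000737), although Rab11a itself was not called. Myo5b, the gene of myosin Vb, is named here after its value was seen. Its difference was -0.66 (adjusted p = 0.0206), called in 1 of 6 fits without 1 array. Exoc6b, a subunit of the exocyst tether, rose by 1.26 (adjusted p = 0.0087). Myo5a, the motor that carries RAB27A granules, read 7.74, 7.75 and 7.53 against 6.93, 6.84 and 6.75. It fell by 0.83 (adjusted p = 0.0109), beside the fall of Rab27a, and missed the threshold without wild-type replicate 1 (adjusted p = 0.0562). Rubcn, which restrains a lipid kinase complex at late endosomes, fell by 0.94 (adjusted p = 0.0181), a call lost without wild-type replicate 1 or 3 or mutant replicate 2.

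None of 7 genes of Rab delivery and prenylation was called (limma), with 2 higher and 0 lower at an unadjusted p under 0.05. Chm, an escort protein that presents Rabs for prenylation, differed by 1.10 (adjusted p = 0.0966), and Rabif by 0.57 (adjusted p = 0.0561). Of 6 Rab-like GTPases, Rabl6 rose by 1.24 (adjusted p = 0.00874) and no other was called. Without wild-type replicate 3 the counts were 2 higher and 0 lower for exchange factors, 3 and 0 for GTPase-activating proteins and 2 and 1 for effectors. Without mutant replicate 3 they were 3 and 3, 5 and 1, and 2 and 5. Of all genes, 4.14% were higher and 0.998% lower without wild-type replicate 3, and 7.14% and 3.09% without mutant replicate 3.

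**Figure D4:**
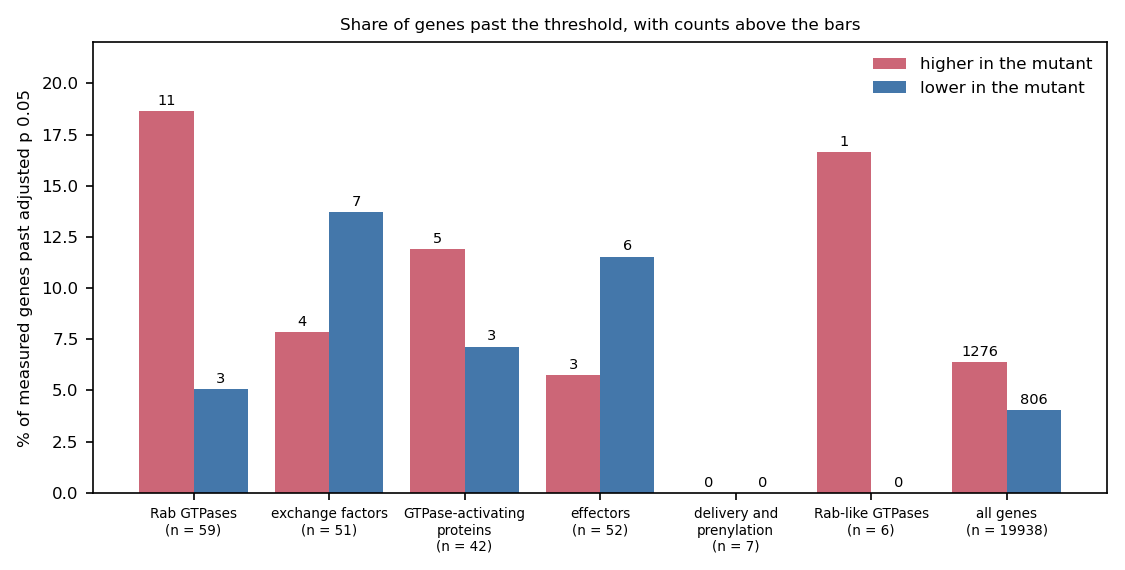
Share of measured genes called higher and lower in the Marf1 mutant for the Rab genes, the lists of Rab regulators and effectors and all genes, as bars from 0 with counts above them. The Rab genes stand at 11 higher and 3 lower of 59, and the background over all genes is 6.4% higher and 4.04% lower.

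The genes next to the Rabs in the RefSeq order were counted as well. Of 28 measured neighbours of the 14 called Rabs, 6 were called (21.4%, beside 10.4% of all genes), 3 higher and 3 lower. Naa15 beside Rab33b (1.57), Tceanc beside Rab9 (0.89) and Tpm4 beside Rab8a (-0.99) went in the direction of their Rab. Suox beside Rab5b (-0.99), Txndc2 beside Rab31 (-0.97) and Khdc3 beside Rab27a (0.59) went the other way. Of 90 neighbours of the uncalled members, 10 were called (11.1%). Pmel, which overlaps Rab5b, and Pp2d1, which overlaps Rab5a, differed by -0.06 and -0.16 without passing. Of 4 overlapping neighbours of uncalled members, 2 were called: Tox4 over Rab2b (1.34, adjusted p = 0.0458) and Cd300lf over Rab37 (-0.91, adjusted p = 0.0368). Rab2b (0.11) and Rab37 (-0.25) had the same signs. Both were uncalled and below the receptor-gene level in both genotypes, so their signs say little. Whether the probes of overlapping genes read 1 strand only is not given in the sources used.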

How the data were processed

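RNA of 3 wild-type and 3 Marf1-mutant oocyte samples was amplified by a whole-transcript method and hybridised, 1 sample to an array. The authors deposited log2 expression values per probe set, rounded to 2 decimals, made with GCOS, Affymetrix Expression Console 1.1 and RMA, per the submitters' processing notes. RMA scales the arrays to one another, so a change in total RNA per oocyte is not visible. The deposited values still differed in distribution. The median was 4.76 in mutant replicate 3 and 4.56 to 4.67 in the other arrays. The SD over rows was 2.04 in mutant replicate 3 and 2.14 to 2.20 in the others. Precision is limited by the number of arrays.

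Of 35556 rows, 21789 named 1 gene (19938 genes), 1621 named several and 12146 were not named here. Names came from the platform annotation, and all 59 members matched RefSeq GRCm38.p6 by Entrez ID. The test was two-sided, from limma 3.58.1 (lmFit and eBayes, under R 4.3.3) with genotype as its single term, with Benjamini-Hochberg adjustment over all rows and a threshold of 0.05. The fit was tested on simulated arrays. Intervals are 95% limits from limma.

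The members and lists were chosen with earlier results of these data known. Named genes were every called Rab, its same-numbered relatives, further members by role, and up to 4 called genes per list by size of change. Some exchange factors and Myo5b were added after their values were seen. Alternatives covered normalization, filters, row choice, variance models, a replicate block and leaving out each array.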

Additional observations from a re-analysis of the deposited data

How the results depend on the processing

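Each of the 14 called Rab genes was recomputed under 15 alternatives, 9 other settings and 6 fits without 1 array. Of these 210 fits, 176 passed the threshold. No direction reversed, but most of these fits could not reverse one. The groups of all 14 genes were apart, so leaving out 1 array keeps the sign. Several of the other settings leave the difference itself unchanged. The numbers of Rab genes called, and called higher, stayed within 1.5 times under the 9 other settings. The share of all genes called ran from 7.18% to 23.7% under these settings. The number called lower was 1 under median centring, 7 when the fit kept rows brighter than the median and 7 when it kept a single row for each gene. The share of all genes called lower was 2.43%, 10.9% and 7.59% in turn, against 4.04% in the main fit. The 29 regulators and effectors became 19 under median centring, where 7.7% of all genes were called. Leaving out 1 array gave 9 to 13 Rab genes, 7 to 10 higher and 1 to 4 lower, and 9 to 21 regulators and effectors. Of all genes, 5.14% to 10.2% were called in these fits. The median difference of the Rab genes ran from -0.08 (rows brighter than the median) to -0.01 (cyclic loess normalization), against -0.05 in the main fit. The median Rab level varied between replicates with an SD of 0.10. That SD is larger than the median difference itself, and it describes levels of arrays rather than differences of genes. It is therefore no measure of how stable the difference was. Under cyclic loess normalization 74.6% of all called genes were higher, and under median centring 68.4%, against 61.3% in the values as deposited. The Rab genes were 12 higher and 3 lower under cyclic loess normalization, beside 7.76% and 2.64% of all genes. Under median centring they were 9 and 1, beside 5.27% and 2.43%.

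With the replicate number as a block, 10 Rab genes were called, 9 higher and 1 lower, and 16 regulators and effectors. Of all genes, 7.18% were called with the block, 5.26% higher and 1.92% lower. Same-numbered samples had deviations correlated at 0.15, -0.10 and 0.03, so the numbers were not taken to pair the samples. With 3 arrays per genotype and a deposited table that holds no measure of background, small differences and dim genes are the least certain.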

Other observations

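Some other small GTPases were counted the same way, as values only. Of 17 Arf and Arl GTPases measured, 3 rose and 1 fell (23.5% called). Arf4, which acts in Golgi traffic, rose by 2.30, Arf2 by 2.71 and Trim23, which has an Arf domain, by 2.50, and Arl3, a ciliary GTPase, fell by 0.82, a call lost without wild-type replicate 1 or 3. Of 31 Ras GTPases, Rap2a rose by 1.36 and Rhebl1 by 1.15 (6.45%). Differences between these families were not tested.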
